A study of Mus musculus with 19 samples.

Results

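The 9 genes described here encode core proteins of the epithelial tight junction: the claudins *Cldn1*, *Cldn3*, *Cldn4*, *Cldn7* and *Cldn23*, occludin (*Ocln*), and the cytoplasmic proteins *Tjp1*, *Tjp3* and cingulin (*Cgn*). They were taken by symbol from the 24557 features of the deposited tables, and all 9 were found in both tissues. The set was chosen with earlier results of these data known. The tables hold RNA sequencing values from C57BL/6 mice (C57BL/6 J in the study's methods) under ad libitum feeding (AL) or calorie restriction (CR). The study's methods describe female mice, corneal epithelium collected by scraping, excised conjunctiva, and a CR ration given daily close to the dark phase. They state that mice aged 6 to 7 months were randomized to CR or AL feeding for 4 months. The cornea had 5 libraries of each diet, and the conjunctiva had 4 of AL and 5 of CR. Every library title carries 6M and 50W, which the labels do not explain, so all groups share these marks and the strain, and no transgene or drug is named for any group. Libraries are called by diet and the number in their title (AL 1, CR 7). The labels do not say that each library is a separate mouse, so p-values measure the spread between these libraries.

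Tight junctions seal the space between neighboring epithelial cells at their apical side. Claudins form the paracellular strands and set which ions and solutes pass, occludin accompanies them in the membrane, and the zonula occludens proteins and cingulin tie the strands to actin and myosin beneath. In the corneal and conjunctival epithelium this seal lies in the superficial cells and limits entry of tear fluid and dyes, which is how corneal barrier function is usually measured.

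The sequences that bear on the results are the promoters of the members, taken from RefSeq on build GRCm38.p6. Windows of 300 bases (250 before and 50 after each start site) were at hand for 8 of the 9 members, as 11 windows, and *Cldn23* had none. They were searched on both strands for CACGTG (the E-box bound by clock factors), CACCTG (the E2-box bound by Snail and Zeb repressors of epithelial genes), AACCGGTT (bound by grainyhead-like factors) and the D-box letters TTATGTAA and TTACGTAA. The E-box occurred in 7.15% of all 32817 windows, the E2-box in 20.2%, AACCGGTT in 0.146%, and the D-box letters in 0.935% and 0.119%. Among the members, the E-box occurred in 2 windows, 1 each of *Cgn* and *Tjp3*, and the E2-box in 7 windows of 5 members (*Cldn3*, *Cldn4*, *Cldn7*, *Ocln* and *Tjp3*). No member window held AACCGGTT or a D-box, and the windows of *Cldn1* and *Tjp1* held none of the letters searched. A match is a description of these letters and not a bound site. The 250 bases before the start site are printed for *Cldn1*, the member with the largest diet difference, and, as members with a searched motif, for *Cgn* and *Cldn4*. They lie at chr16:26371840-26372089, chr3:94786483-94786732 and chr5:134946935-134947184, all on the minus strand, and capitals mark an E-box in *Cgn* and an E2-box in *Cldn4*.
Cldn1: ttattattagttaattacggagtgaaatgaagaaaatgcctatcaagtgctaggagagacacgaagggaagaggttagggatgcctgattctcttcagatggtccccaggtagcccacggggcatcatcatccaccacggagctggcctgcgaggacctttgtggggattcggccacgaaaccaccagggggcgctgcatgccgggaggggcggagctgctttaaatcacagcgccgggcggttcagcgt
Cgn: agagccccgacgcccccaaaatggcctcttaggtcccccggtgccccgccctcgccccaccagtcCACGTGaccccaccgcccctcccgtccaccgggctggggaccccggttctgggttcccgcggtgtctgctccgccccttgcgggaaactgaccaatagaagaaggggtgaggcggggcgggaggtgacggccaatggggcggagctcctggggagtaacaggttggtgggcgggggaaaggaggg
Cldn4: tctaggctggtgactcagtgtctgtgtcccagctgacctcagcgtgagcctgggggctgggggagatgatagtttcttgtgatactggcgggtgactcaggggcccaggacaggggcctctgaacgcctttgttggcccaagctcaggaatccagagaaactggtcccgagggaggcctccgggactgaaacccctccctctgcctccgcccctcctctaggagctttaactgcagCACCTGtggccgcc
The E-box of *Cgn* lay 185 bases before the start site used, which is inside the span of the gene, and the E2-box of *Cldn4* lay 14 bases before it.

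On the same build *Cldn1* spans chr16:26356645-26371839, *Cldn23* chr8:35824709-35826559, *Ocln* chr13:100496504-100552718, *Tjp1* chr7:65296165-65527850, *Tjp3* chr10:81273188-81291581 and *Cgn* chr3:94760069-94787725, all on the minus strand. *Cldn7* spans chr11:69964779-69967886 on the plus strand. *Cldn3* (chr5:134986214-134987476, plus) and *Cldn4* (chr5:134945123-134946934, minus) lie close together on chromosome 5, each with 1 coding exon. Reads were counted per gene, so no exon, intron or untranslated part is told apart here.

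Counted reads per library were 10354125 to 14681223 for the cornea and 10726717 to 14433441 for the conjunctiva. The summed normalized counts of 6 corneal epithelial markers, which include *Krt12* and *Aldh3a1*, ran from 366114 to 561333 in cornea libraries and from 44313 to 76286 in conjunctiva libraries. Summed counts of 12 general epithelial markers overlapped between the diets in both tissues, at 474745 to 520412 in AL and 393779 to 555701 in CR cornea and at 112578 to 158376 in AL and 94789 to 185196 in CR conjunctiva. Cornea AL 1 had the highest lacrimal gland marker sum, at 31883 against at most 411 in any CR cornea. The difference was not confined to AL 1, since the AL median (651) was also above every CR library, while the lowest AL sum was 117. Conjunctiva CR 5 had the highest meibomian gland sum (25665) and CR 3 the highest skeletal muscle sum (138065). In bulk tissue, fewer cells of a type and less RNA per cell cannot be told apart.

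In the cornea 1 member of the family, *Cldn1*, rose under CR, and the 8 other members did not pass the test. *Cldn1* encodes claudin-1, a sealing claudin whose loss in mice opens the skin barrier. Its normalized counts (reads divided by the library's size factor) in AL cornea were 88.0, 170.4, 87.3, 126 and 74.2 in AL 1 to AL 5. In CR cornea they were 275, 258, 161, 217 and 315 in CR 1, CR 2, CR 3, CR 4 and CR 7. All 5 CR libraries were above the AL mean and 4 of them were above every AL library, with CR 3 below AL 2, so the diets overlapped by that pair. The mean went from 109 ± 39.3 (SD, n = 5) to 245 ± 58.9 (SD, n = 5), a log2 change of 1.19 ± 0.24 (SE, 95% interval 0.69 to 1.69) or 2.28-fold. This passed the threshold of an adjusted p under 0.05 and a fold over 1.5 (limma, Benjamini-Hochberg adjusted p = 0.0163), as did 1.22% of the 12278 genes tested in the cornea, 0.749% with higher values under CR. The call was lost without AL 1, AL 3, AL 5 or CR 2 (adjusted p up to 0.0603) and with a covariate for the share of genes at 0 reads (adjusted p = 0.0688). Alongside, 6 of 6 tested leukocyte markers (median log2 change −0.73) and 9 of 9 lacrimal gland markers (median −2.67) were lower under CR in the cornea, with 0 and 1 of them called. By log2 change, conjunctival epithelial markers were higher there under CR (6 of 6, median 0.28, 0 called). Their summed counts overlapped between the diets, at 39873 to 57507 in AL and 45370 to 83394 in CR, with CR 7 highest. The median sum was lower under CR (46981 against 49721). The part of these 3 marker sets in the *Cldn1* values was not tested. These levels rested on 72 to 156 reads per AL library and 212 to 339 reads per CR library.

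The conjunctiva held more *Cldn1* reads, and the diets did not overlap there. AL 1, AL 3, AL 4 and AL 5 had normalized counts of 229.9, 276, 258 and 296. CR 1 to CR 5 had 733, 498, 385, 432 and 438. Every CR library was above every AL library, which was so for 1.92% of the 13929 genes tested in the conjunctiva, and CR 1 was well above the other CR libraries. The mean was 265 ± 28.1 (SD, n = 4) under AL and 497 ± 138 (SD, n = 5) under CR, a log2 difference of 0.87 ± 0.19 (SE, 95% interval 0.47 to 1.27) or 1.83-fold. The limma adjusted p was 0.0659, which did not pass the threshold, and 0.359% of all genes were called in this tissue. Meibomian gland markers (9 of 9 tested, median log2 change 1.88) and skeletal muscle markers (8 of 8, median 0.49) were higher under CR and leukocyte (8 of 8, median −0.67) and fibroblast markers (10 of 10, median −0.68) lower, and their part in the *Cldn1* values was not tested. The difference between the tissues in the log2 change of *Cldn1*, conjunctiva minus cornea, was −0.32 with a 95% interval of −0.94 to 0.30 (adjusted p = 0.838), so a smaller change in the conjunctiva was not shown. This test treats the tissues as independent, while their libraries share title numbers and may come from the same mice. Taken per shared title, the difference was −0.36 (adjusted p = 0.926).

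**Figure D1:**
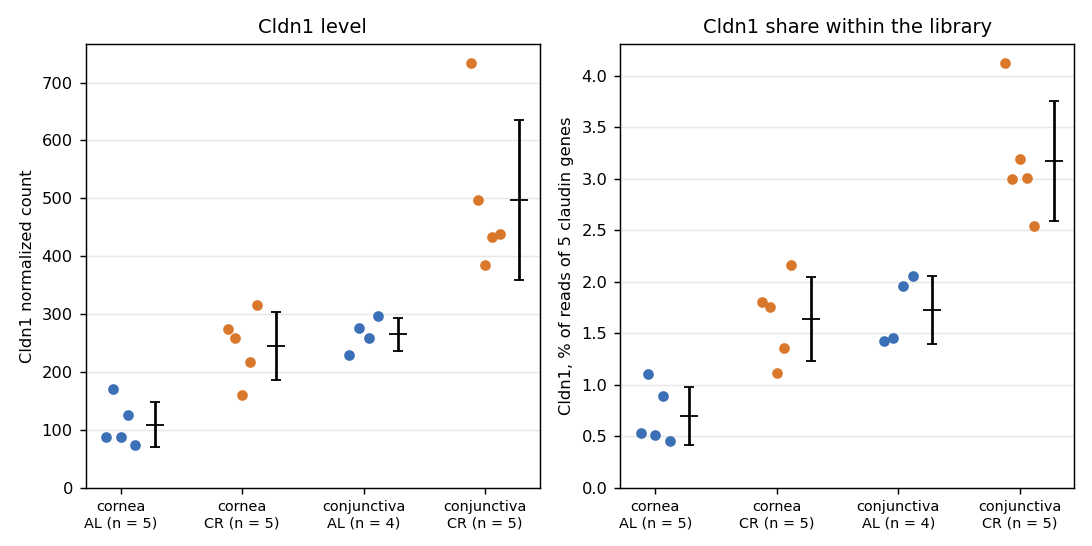
Cldn1 in each library of the 4 groups. The left plot gives normalized counts and the right plot gives Cldn1 reads as a percentage of the reads of 5 claudin genes, with each point 1 library and bars the mean ± SD. In the conjunctiva every CR point (385 to 733) lies above every AL point (229.9 to 296), while in the cornea the AL and CR points overlap by 1 pair on the left and not at all on the right.

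The share of *Cldn1* among the reads of the 5 claudin members of the same library does not depend on scaling between libraries. This comparison was not among those planned. It uses the same *Cldn1* reads as the comparisons above, so it is not separate evidence. In the cornea it was 0.698% ± 0.283 (SD, n = 5) in AL and 1.64% ± 0.407 (SD, n = 5) in CR. The AL libraries lay between 0.455% and 1.10% and the CR libraries between 1.12% and 2.16%, without overlap (two-sided exact permutation p = 0.00794, the smallest this design can give). In the conjunctiva the share was 1.73% ± 0.329 (SD, n = 4) in AL and 3.17% ± 0.584 (SD, n = 5) in CR, again without overlap (two-sided exact permutation p = 0.00794, the smallest possible). These are the unadjusted values of 2 among 10 claudin shares compared. *Cldn3* also took a larger share under CR in the cornea, 6.40% ± 1.04 against 5.31% ± 0.567 (n = 5 each, two-sided exact permutation p = 0.0397, unadjusted), and its conjunctival share was 12.2% ± 1.03 (n = 5) against 10.6% ± 1.26 (n = 4, exact permutation p = 0.0794). For the other 3 claudins the unadjusted exact permutation p ran from 0.0794 (*Cldn7*, cornea) to 0.849 (*Cldn7*, conjunctiva).

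The remaining claudins are the bulk of the family in these tissues. *Cldn4* and *Cldn7*, claudins common in simple and stratified epithelia, were the most abundant members in every group. Cornea *Cldn4* was 6613, 5517, 5725, 4936 and 5508 in AL 1 to AL 5 and 5439, 5019.7, 5409, 5720.1 and 4468 in CR 1, 2, 3, 4 and 7. The diets overlapped, with a log2 change of −0.12 (95% interval −0.34 to 0.10, limma adjusted p = 0.574). Cornea *Cldn7* was 8133, 7925, 9321, 7014 and 9012 under AL and 7655, 7575, 6570.1, 7596 and 6503 under CR. All 5 CR values lay below the AL mean of 8281, but the log2 change of −0.20 (95% interval −0.42 to 0.01) did not pass (adjusted p = 0.310). In the conjunctiva *Cldn4* ran from 4592 to 6741 under AL and from 4619.8 to 6645 under CR, and *Cldn7* from 5523 to 8923 and from 4776 to 8636. Their log2 changes there were −0.06 (95% interval −0.39 to 0.27) and −0.03 (95% interval −0.41 to 0.36), with adjusted p of 0.934 and 0.977.

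*Cldn3*, another barrier-forming claudin, had cornea values of 916, 719, 904, 866 and 806 under AL and 886, 918, 858, 913 and 1198 under CR. The 5 CR libraries were all above the AL mean, CR 7 by the widest margin, and the log2 change was 0.18 (95% interval −0.08 to 0.43, limma adjusted p = 0.459). Conjunctiva *Cldn3* was 1857, 1731, 1301 and 1687 under AL and 2189.7, 2189, 1446, 1873 and 1828 under CR, with a log2 change of 0.21 (95% interval −0.12 to 0.54, adjusted p = 0.723). The diets overlapped in both tissues. The annotated *Cldn3* overlaps the long noncoding gene *Wbscr25*, and whether strand was used in counting is not given in the sources used here.

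*Cldn23*, a less studied claudin, had opposite signs in the 2 tissues. In the cornea it was 842, 1144, 991, 1183 and 879.5 in AL and 1021, 949.9, 1376, 1465 and 2067 in CR. In all, 3 CR libraries exceeded every AL library, and the log2 change was 0.40 (95% interval 0.02 to 0.79, unadjusted p = 0.0418, adjusted p = 0.257 by limma). In the conjunctiva it was 1619, 1253, 1102 and 1553 in AL and 1422, 1362, 838, 1027 and 1381 in CR, a log2 change of −0.21 (95% interval −0.59 to 0.17, adjusted p = 0.768). The change in the conjunctiva minus that in the cornea was −0.61 (95% interval −1.13 to −0.09, unadjusted p = 0.0226), which did not pass after adjustment over 11929 genes (adjusted p = 0.606).

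Occludin, the MARVEL-domain protein of the strands, had the smallest diet difference of the family in the cornea. *Ocln* counts there were 173, 144, 124, 173 and 167 under AL and 137, 142, 232, 134 and 161 under CR, with CR 3 highest and the rest intermingled. The log2 change was 0.02 with a 95% interval of −0.39 to 0.44 (limma adjusted p = 0.965). In the conjunctiva *Ocln* was 145, 211, 178 and 134 under AL and 239.6, 138, 82.1, 169 and 235 under CR. Here the CR libraries spanned the whole AL range, CR 3 was the lowest, and the log2 change was −0.03 with a 95% interval of −0.65 to 0.59 (adjusted p = 0.982). The interval for *Ocln* in the conjunctiva was the widest of all members, and it reached from 0.638 to 1.504 times the AL level. A small nucleolar RNA gene, *LOC115488221*, lies within the annotated *Ocln*.

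The plaque proteins link the strands to the cytoskeleton. *Tjp1* encodes ZO-1, the scaffold on which claudins assemble. In the cornea it was 1458, 1681, 1268, 1892 and 1409 under AL and 1388, 1993, 1885, 1679.8 and 2369 under CR, and 4 of 5 CR libraries were above the AL mean. The log2 change was 0.26 (95% interval −0.03 to 0.56, limma adjusted p = 0.332). Conjunctiva *Tjp1* was 855, 943, 851 and 964 under AL and 947, 1251, 648, 1079.9 and 1365 under CR. The 4 AL libraries were tight (SD 58.7) and the 5 CR libraries spread on either side of them (SD 279.6), with a log2 change of 0.18 (95% interval −0.21 to 0.58, adjusted p = 0.812). *Tjp1* followed the share of listed genes with 0 reads in a library, a measure of how many genes a library reached, with Pearson r of 0.89 over the 10 cornea libraries and 0.81 over the 9 conjunctiva libraries. That share was 38.7% to 45.15% in AL and 39.9% to 47.6% in CR cornea, and its part in the *Tjp1* values was addressed only by adding it as a covariate, which gave a cornea log2 change of −0.03.

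*Tjp3*, the ZO-3 scaffold of epithelial cells, had cornea values of 2298, 2859, 2268, 2362 and 2353 under AL and 1759, 2469, 2471, 3204 and 2796 under CR. The CR libraries lay on either side of the AL libraries, and the log2 change was 0.04 (95% interval −0.24 to 0.33, limma adjusted p = 0.895). In the conjunctiva *Tjp3* was 2457, 2134, 1958 and 2580.1 under AL and 2163, 2399, 1419, 1942 and 1759 under CR. In all, 3 CR libraries lay below every AL library there, with a log2 change of −0.25 (95% interval −0.59 to 0.09, adjusted p = 0.663). The annotated *Tjp3* overlaps *Apba3*.

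Cingulin binds ZO proteins and myosin. Cornea *Cgn* was 1751, 2016, 1794, 1263 and 2311 under AL and 1842, 1557, 1396, 2008 and 1058 under CR, with a log2 change of −0.22 (95% interval −0.60 to 0.15, limma adjusted p = 0.529). The lowest AL library (AL 4) and the lowest CR library (CR 7) were the libraries of their diet with the most genes at 0 reads (45.15% and 47.56%). Across the cornea libraries *Cgn* ran against that share (Pearson r −0.79, n = 10) as it did in the conjunctiva (r −0.61, n = 9). Conjunctiva *Cgn* was 974, 1241, 1029.5 and 734 under AL and 1195, 1267, 1043, 840.1 and 779 under CR, and the ranges overlapped almost fully (log2 change 0.04, 95% interval −0.34 to 0.43, adjusted p = 0.962). The annotated *Cgn* overlaps *Gm52626*.

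**Figure D2:**
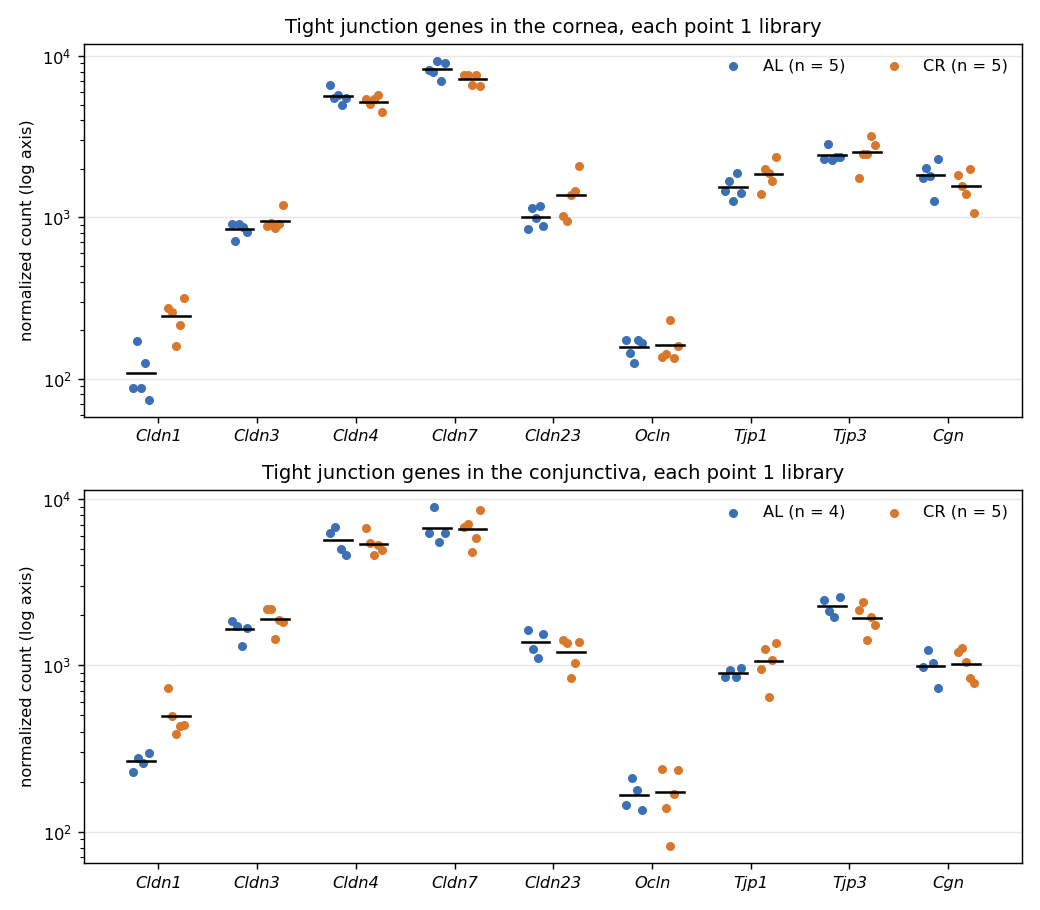
Normalized counts of the 9 genes on a log axis in the cornea (top) and conjunctiva (bottom). Each point is 1 library, blue for AL and orange for CR, and black bars are group means. Cldn1 shows the only clear step between diets, from a mean of 109 to 245 (cornea) and 265 to 497 (conjunctiva), while the AL and CR points of the other 8 genes intermingle.

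As a family, cornea values were higher under CR for 6 members and lower for 3, with a median log2 change of 0.04, and 4 were higher and 5 lower in the conjunctiva, with a median of −0.03. Over all tested genes the medians were −0.03 in the cornea, where 46.9% of genes were higher, and −0.02 in the conjunctiva, where 48.0% were higher. The call count was 1 of 9 in the cornea and 0 of 9 in the conjunctiva, against 1.22% and 0.359% of all genes called. In the same order, 0 of 9 and 1 of 9 members did not overlap between diets, against 3.97% and 3.87% of all genes. For the 8 uncalled cornea members the 95% intervals reached from −0.60 at the lowest to 0.79 at the highest, so a 1.5-fold change was within the interval of *Cldn23* upward and of *Cgn* downward. In the conjunctiva, where no member was called, it was within the interval of *Ocln* in both directions (−0.65 to 0.59). It was also within those of *Tjp3* and *Cldn23* downward (each to −0.59) and of *Cldn1* upward (to 1.27). None of the 9 passed the adjusted test for a difference between the tissues in its diet change, against 2 of 11929 genes (0.0168%) that did. All 9 passed the filter on low values in each tissue.

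**Figure D3:**
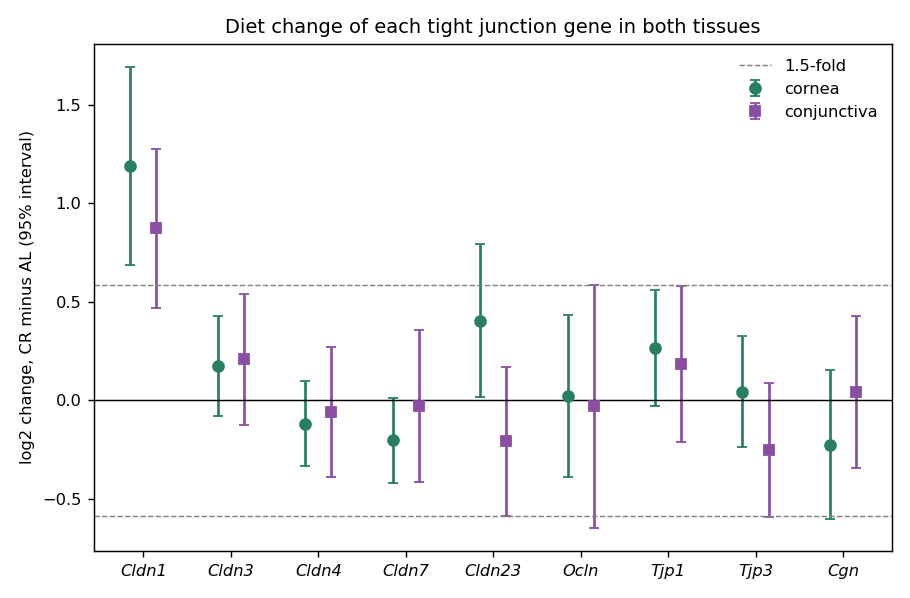
Log2 change, CR minus AL, of each gene in the cornea (circles) and conjunctiva (squares) with 95% intervals from limma. Dashed lines mark 1.5-fold. The intervals of Cldn1 (0.69 to 1.69 and 0.47 to 1.27) exclude 0 in both tissues, as does that of Cldn23 in the cornea (0.02 to 0.79), and the others include 0.

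Levels were set on a scale of counted reads scaled to library total and kilobases of merged exon (RPKM). They are a description, since the tables of the tissues were scaled separately. In AL cornea *Cldn7* led at 367 ± 44.7 (SD, n = 5), with *Cldn4* at 269 ± 27.7 and no overlap of their libraries. *Cldn3* (57.7 ± 5.86), *Tjp3* (56.4 ± 5.36) and *Cldn23* (47.0 ± 7.18) followed, the first pair overlapping and *Tjp3* overlapping *Cldn23*. *Cgn* (26.2 ± 5.53) overlapped *Tjp1* (17.0 ± 2.61), and *Ocln* (3.19 ± 0.406) overlapped *Cldn1* (1.94 ± 0.687), which was last. In CR cornea *Cldn1*, at 4.38 ± 0.964 (n = 5), stood above *Ocln* at 3.33 ± 0.914, in 4 of 5 libraries, with overlapping ranges. *Cldn23* (64.4 ± 19.5) stood next to *Cldn3* (65.7 ± 7.74) there, within its spread.

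In AL conjunctiva the first places were the same, with *Cldn7* at 292 ± 60.9 (n = 4) overlapping *Cldn4* at 262 ± 46.4. *Cldn3* came next at 110 ± 16.3, apart from both its neighbors. *Cldn23* (63.3 ± 11.6) exceeded *Tjp3* (52.0 ± 6.62) in all 4 libraries although their ranges overlapped. *Cldn1*, at 4.63 ± 0.431, was already above *Ocln*, at 3.34 ± 0.663, in every AL library. Under CR *Cldn1* reached 8.21 ± 2.52 (n = 5), above *Ocln* (3.22 ± 1.20) without overlap and overlapping *Tjp1* (10.7 ± 2.36). A stranded mRNA kit stands in the labels but oligo(dT) priming in the published methods, and if the reads came from transcript ends no length correction applies. Without it, 5 members changed place in AL cornea and 3 in AL conjunctiva, and *Cldn7* and *Cldn4* kept their places at the top in every group.

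The wider junction machinery was described with 7 lists of 105 genes, of which 75 passed the low-value filter in the cornea and 87 in the conjunctiva. These lists were also written with earlier results of these data known. In the cornea 1 of 75 (1.33%) was called, near the 1.22% of all genes, and in the conjunctiva 0 of 87 against 0.359% of all genes. The diets did not overlap for 4 cornea list genes (5.33%, against 3.97% of all genes) and 3 conjunctiva list genes (3.45%, against 3.87%). Over these list genes the median log2 change was 0.05 for cornea and 0.03 for conjunctiva. Other claudins were scarce, with 3 of 19 listed claudins past the filter in the cornea and 7 in the conjunctiva, and 8 and 7 of them had no read in any library.

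The gene called in the cornea was *Grhl3*, a grainyhead-like transcription factor needed for barrier formation in surface epithelia. Its normalized counts were 139, 259, 186, 194 and 153 in AL cornea and 373, 402, 414, 592 and 648 in CR 1, CR 2, CR 3, CR 4 and CR 7. Every CR library was above every AL library, as for 2.08% of all genes in this tissue. The mean went from 186 ± 46.6 to 486 ± 125 (SD, n = 5 each), a log2 change of 1.38 ± 0.19 (SE, 95% interval 0.97 to 1.78, limma adjusted p = 8.95e-04). In the conjunctiva *Grhl3* was 219, 299.6, 212 and 379 under AL and 357, 292, 192, 253 and 234 under CR, with a log2 change of −0.05 (95% interval −0.52 to 0.42, adjusted p = 0.962). The change in the conjunctiva minus that in the cornea was −1.43 (95% interval −2.03 to −0.83), with an adjusted p of 0.0843 over all genes tested in both tissues, so it did not pass, again with the tissues taken as independent.

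**Figure D4:**
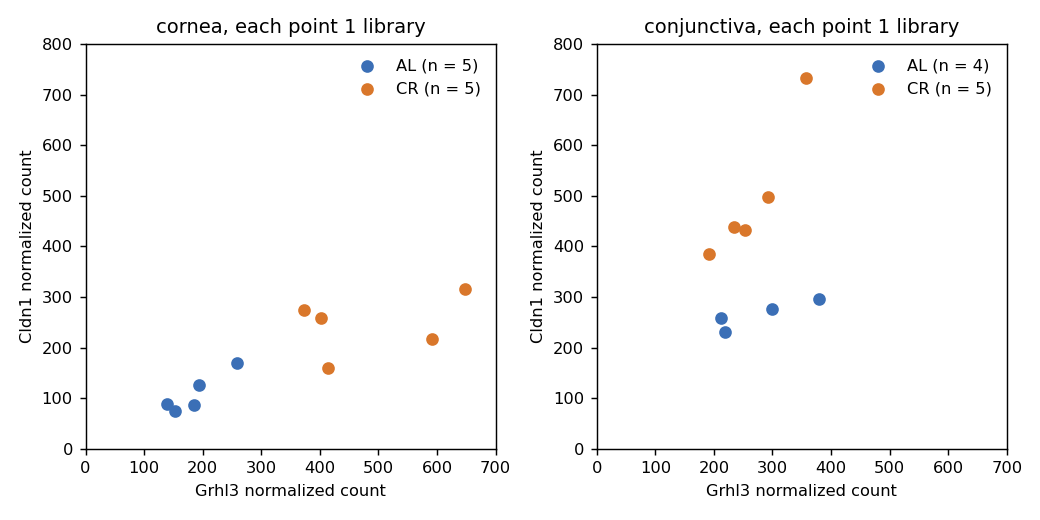
Cldn1 against Grhl3 normalized counts, each point 1 library, blue for AL and orange for CR. In the cornea (left) the CR points have Grhl3 of 373 to 648 and the AL points 139 to 259. In the conjunctiva (right) the Grhl3 ranges of the diets overlap while the Cldn1 ranges do not.

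The counts of *Cldn1* and *Grhl3* went together over the 10 cornea libraries (Pearson r 0.90 on the log2 scale), which the diets they share contribute to. Within the AL cornea libraries r was 0.88 (n = 5) and within the CR libraries 0.28 (n = 5). In the conjunctiva r was 0.35 over all 9 libraries and 0.87 (n = 4) and 0.94 (n = 5) within the diets. The points share library depth and composition, and the values are a description.

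Of the cytoplasmic plaque list, 17 genes were tested in the cornea and 18 in the conjunctiva, and none was called. Its leading gene in both tissues was *Magi3*, a membrane-associated scaffold of cell contacts. Cornea *Magi3* was 1506 ± 101 in AL and 1843 ± 223 in CR without overlap (log2 change 0.29, limma adjusted p = 0.177), and conjunctiva *Magi3* was 855 ± 186 and 1312 ± 253 (log2 change 0.62, adjusted p = 0.201). Next in the cornea was *Ybx3*, the Y-box protein that binds ZO-1, at 8172 ± 866 and 6774 ± 871 (log2 change −0.27, adjusted p = 0.200). In the conjunctiva it was *Cgnl1*, paracingulin, at 2206 ± 175 and 2983 ± 331 without overlap (log2 change 0.43, adjusted p = 0.244).

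In the polarity complex, which positions the junction along the cell's side, *Pard6b* was 758 ± 83.6 in AL and 1018 ± 109 in CR cornea without overlap (log2 change 0.43, limma adjusted p = 0.0719). Its partner kinase *Prkci*, atypical protein kinase C, was 2232 ± 312 and 3162 ± 658 (log2 change 0.49, adjusted p = 0.0863). Conjunctiva *Pard6g* and *Pard3* had log2 changes of 0.28 and 0.24 (adjusted p 0.673 and 0.686). None of the 12 polarity genes passed in either tissue.

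Among claudin stabilizers and proteases, the Kunitz protease inhibitors *Spint2* and *Spint1* led in the cornea, with log2 changes of 0.39 and 0.33 (limma adjusted p 0.148 and 0.172). In the conjunctiva the leading gene was *Mmp9*, a secreted metalloproteinase that can degrade junction proteins of the ocular surface. *Mmp9* was 482 ± 131 (range 325 to 595, n = 4) in AL and 224 ± 70.0 (range 142 to 301, n = 5) in CR, with every CR library below every AL library, as for 1.95% of all genes there. Its log2 change was −1.12 (95% interval −1.65 to −0.59), with an adjusted p of 0.0767. *Mmp3*, another such protease, was 1892 ± 469 and 1196 ± 440 (log2 change −0.72, adjusted p = 0.389). Of the 8 leukocyte and 10 fibroblast markers tested in the conjunctiva, all lower under CR, 1 and 2 were called, against 0.359% of all genes. The fibroblast marker sum was 41226 to 61628 in AL and 27358 to 53080 in CR, the leukocyte sum 6681 to 9539 and 4609 to 6351, and the part of either in the *Mmp9* and *Cldn1* values was not tested.

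In the membrane list, *Ildr1*, which marks tricellular contacts, led in the cornea (log2 change 0.29, limma adjusted p = 0.241). *Ildr2* came next at 19.0 ± 10.8 and 12.7 ± 16.3 normalized counts (adjusted p = 0.403), and it led in the conjunctiva at 260 ± 41.6 and 177 ± 40.6 (log2 change −0.57, adjusted p = 0.388). *Marveld2*, tricellulin, followed there with a log2 change of 0.44 (adjusted p = 0.501). Of the other claudins, *Cldn8* and *Cldn12* led in the cornea (log2 changes 1.20 and 0.03, adjusted p 0.289 and 0.968). In the conjunctiva *Cldn11* was 3.76 ± 3.66 and 17.8 ± 5.71 without overlap, near the few counts that 3 reads give, and *Cldn12* had a log2 change of 0.52 (adjusted p 0.367 and 0.493).

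Among transcription factors of epithelial junctions, *Grhl1* followed *Grhl3* in the cornea at 2202 ± 225 and 2655 ± 165 (log2 change 0.27, limma adjusted p = 0.175). In the conjunctiva the epithelial factors *Ehf* and *Klf5* led, with log2 changes of 0.41 and 0.52 (adjusted p 0.430 and 0.464). In the actomyosin ring list, the nonmuscle myosin *Myh14* was 5390.1 ± 233 and 4222 ± 685 in the cornea (log2 change −0.37, adjusted p = 0.104), and the light chain *Myl12a* had a log2 change of 0.41 (adjusted p = 0.121). *Myh10* and *Rock2* led in the conjunctiva with log2 changes of −0.45 and 0.25 (adjusted p 0.470 and 0.688).

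The members did not move as a block. Over the 10 cornea libraries *Cldn7* and *Cgn* went together (Pearson r 0.79 on the log2 scale), as did *Cldn23* and *Tjp1* (r 0.73), while *Cldn7* ran against *Tjp1* (r −0.85). *Cldn1* was nearest to *Tjp1* (r 0.63) and *Cldn23* (r 0.61) in the cornea and to *Cldn3* (r 0.63) over the 9 conjunctiva libraries. The share of genes at 0 reads divided the cornea members in the same way, with r of −0.78 for *Cldn4*, −0.79 for *Cldn7* and −0.79 for *Cgn* and of 0.64 for *Cldn23*, 0.53 for *Cldn1* and 0.89 for *Tjp1*. The libraries share depth and composition, so these values are descriptions.

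The 5 genes whose pattern was most like the mean of the standardized members were *Atp6v0d1* (r 0.94), *Dnajc14*, *H2-K1*, *Rac1* and *Vapa* (r 0.90) over the 10 cornea libraries. Over the 9 conjunctiva libraries they were *Lmnb1* (r 0.93), *Pla2g4a*, *Odf2*, *Nsf* and *Gas8* (r 0.90). No gene was in both sets. The genes most like *Cldn1* alone, a comparison chosen after its values were seen, were *Nprl3* (r 0.96), *Vps37b*, *Lysmd3*, *Grhl3* and *Gm1821* (r 0.90) in the cornea and *Lmo4* (r 0.95), *Aldoc*, *Fam117b*, *Aldh5a1* and *Kctd14* (r 0.94) in the conjunctiva.

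The direction of *Cldn1* was the same in every processing tried, and its place at the threshold was not. In the cornea the log2 change ran from 1.07 to 1.37 when single libraries were left out, and the limma adjusted p was 0.0565 without AL 1, 0.0554 without AL 3, 0.0603 without AL 5 and 0.0581 without CR 2. Cornea AL 1 is the library with the highest lacrimal gland marker sum, and without it the log2 change was 1.13. The AL median of that sum (651) was also above every CR library, so leaving out AL 1 does not address the difference between the diets. In the conjunctiva the log2 change ran from 0.72 to 0.96 when single libraries were left out. The limma adjusted p then ran from 0.0265 to 0.208, and under the other alternatives from 0.00789 to 0.112. *Cldn1* passed the threshold there without CR 3 (0.96, adjusted p = 0.0265), without CR 5 (0.91, adjusted p = 0.0466), without both (1.03, adjusted p = 0.0245) and with array weights (0.99, adjusted p = 0.00789). CR 3 and CR 5 are the conjunctiva libraries with the highest muscle and meibomian marker sums. CR 3 also had the lowest *Cldn1* count among the CR libraries there (385). Leaving out the pair was chosen after seeing the data, and the part of these markers in the *Cldn1* values was not tested.

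**Figure D5:**
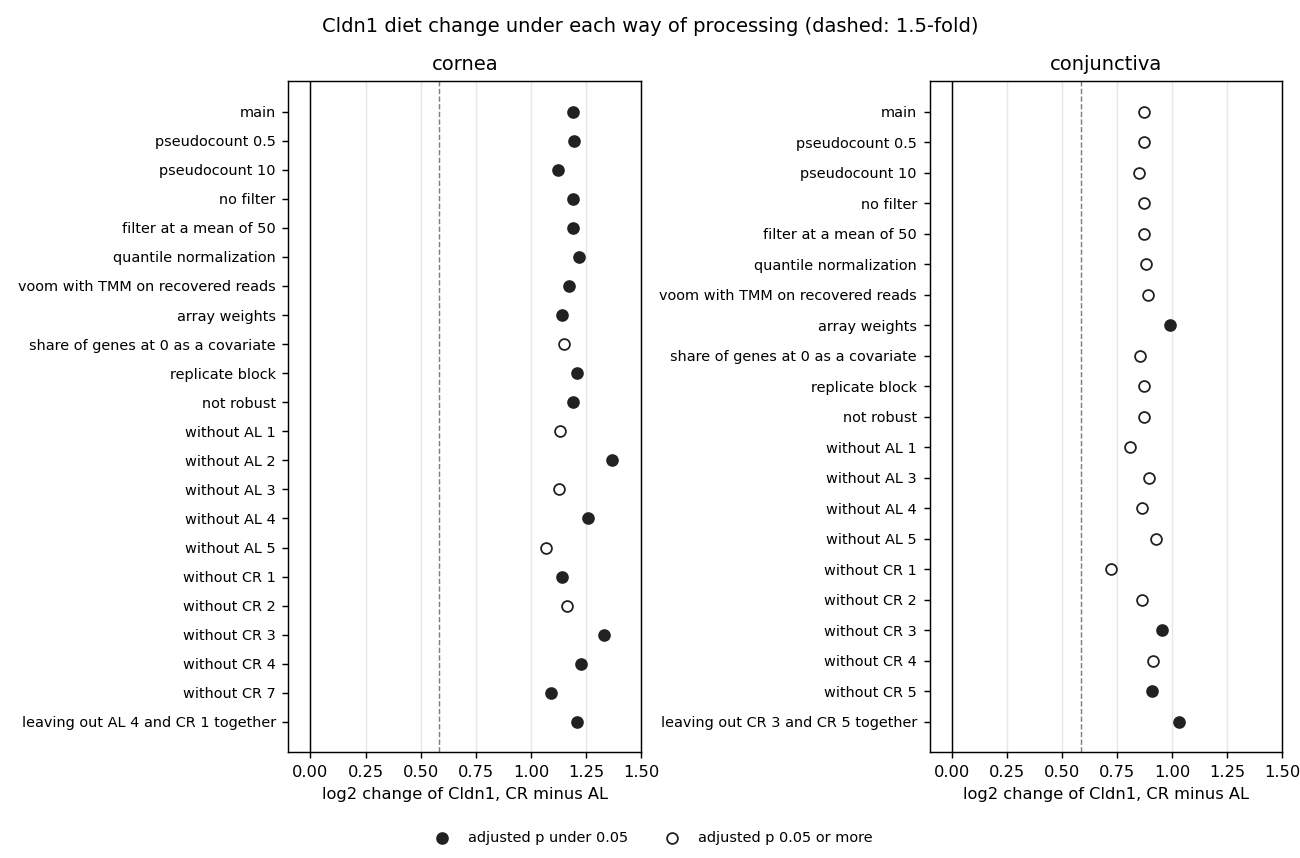
Log2 change of Cldn1, CR minus AL, in the cornea (left) and conjunctiva (right) under each way of processing and with single libraries left out. Filled points have an adjusted p under 0.05, open points do not, and the dashed line is 1.5-fold. Every point lies right of the dashed line, at 1.07 to 1.37 for cornea and 0.72 to 1.03 for conjunctiva.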

How the data were processed

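RNA sequencing values of 10 cornea and 9 conjunctiva libraries were analysed, grouped from their labels. One legend of the study gives the conjunctiva sizes the other way round, and the labels were followed. Per the study's methods the authors aligned reads to mm10 with STAR, counted them with HTSeq and scaled them with DESeq2, while the submitters' processing notes name GRCm39. The deposited values are log2 of the count over the size factor plus 1, in a table per tissue. They were turned back into normalized counts and whole reads (100% whole within 0.01), and 5 repeated symbols were left out. For a gene with 0 reads, an expected count of up to 3 reads was allowed, and this covers counting error only.

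Diets were compared within a tissue with limma 3.58.1 (statmod 1.5.0, R 4.3.3; trend, robust, no covariate) on log2(normalized count + 1) for genes averaging 10 or more, adjusted over all of them. Changes are on that scale, which understates low genes. Tissue differences used Satterthwaite degrees of freedom, and single shares exact permutation. Exon lengths came from GENCODE on GRCm38. The procedure was tested on simulated data. Members and lists were chosen with earlier results of these data known. Named genes are the members, list genes past an adjusted p of 0.05, the 2 leading genes of each list and tissue, and the 5 most alike. Markers are named where a result turns on them. Replicate numbers were not used to pair libraries in the main comparisons. Alternatives were other pseudocounts, filters, scalings (quantile, voom with TMM), array weights, a covariate, no robust option, the replicate block and libraries left out. Protein sequences were not used here.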

Additional observations from a re-analysis of the deposited data

Results flagged for a closer look

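In 36 groups of a member, tissue and diet, 2 held a library far from the others of its group, and chance alone gives such a gap in about 1 in 20 groups. *Tjp3* was 2859 in cornea AL 2, while the other 4 AL libraries lay between 2268 and 2362. *Cldn3* was 1198 in cornea CR 7, while the other 4 CR libraries lay between 858 and 918. Neither gene was called, and without cornea AL 2 or CR 7 neither *Tjp3* nor *Cldn3* was called.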

How the results depend on the processing

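Values in parentheses are log2 changes. *Cldn1* was higher under CR under every alternative in both tissues, as was *Grhl3* in the cornea, called each time. In the cornea a covariate for the share of genes at 0 left 0 members called (*Cldn1* 1.15, adjusted p 0.0688) and turned *Cldn4* (0.024), *Ocln* (−0.15), *Tjp1* (−0.029), *Tjp3* (−0.058) and *Cgn* (0.13), none of them called. Array weights gave 2 called list genes there (*Zeb2* added), and leaving out AL 4 and CR 1 together, an alternative chosen after seeing the data, gave 6. In the conjunctiva array weights gave 1 called member (*Cldn1* 0.99) and 1 list gene (*Mmp9*) and turned *Cldn7* (0.020) and *Grhl3* (0.12). Leaving out CR 3 and CR 5 together, also chosen after seeing the data, gave 1 called member (*Cldn1* 1.03) and turned *Cldn4* (0.047), *Ocln* (0.11) and *Grhl3* (0.14). Quantile normalization turned *Ocln* (0.0033) and the covariate *Tjp1* (−0.033).

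Leaving out single libraries gave 0 to 1 called members in either tissue, 1 to 2 called list genes for cornea (*Zeb2* added without AL 4, *Prkci* without CR 1) and 0 to 2 for conjunctiva (*Mmp9* without AL 3, *Mmp9* and *Klf5* without CR 3). *Cldn1* then ran from 1.07 to 1.37 and from 0.72 to 0.96, with limma adjusted p up to 0.0603 and 0.208. Signs turned within −0.12 to 0.082 for *Ocln* and −0.048 to 0.17 for *Tjp3* in the cornea. In the conjunctiva they turned within −0.15 to 0.032 for *Cldn4*, −0.13 to 0.12 for *Cldn7*, −0.17 to 0.21 for *Ocln*, −0.10 to 0.16 for *Cgn* and −0.17 to 0.11 for *Grhl3*. The differences between tissues turned within −0.075 to 0.13 for *Cldn3*, −0.035 to 0.15 for *Cldn4*, −0.20 to 0.19 for *Ocln* and −0.18 to 0.085 for *Tjp1*, and 0 members passed in any. The exact permutation p of the *Cldn1* share then ran from 0.00794 to 0.0159 (cornea) and 0.0179 to 0.0286 (conjunctiva). Without length correction 5 and 3 members changed place.

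Replicate numbers gave no sign of pairing (correlations of same-numbered libraries −0.30 to 0.29 between diets and −0.42 to 0.14 between tissues). So few pairs cannot exclude that the tissues share mice. With the replicate block *Cldn1* was 1.21 (cornea, adjusted p 0.0236) and 0.87 (conjunctiva, 0.0600), with 1 and 0 members called. No call on a member changed. The causes of these shifts were not tested. Over all tested genes, 150 were called for cornea and 50 for conjunctiva, and the alternatives gave 53 to 1212 and 26 to 149. Apart from single libraries left out, 62 (covariate), 705 (array weights) and 1212 (without AL 4 and CR 1) in the cornea and 149 (array weights) and 91 (without CR 3 and CR 5) in the conjunctiva lay over 1.5 times away. Depth limits *Cldn1* and *Ocln* most, at 72 to 753 and 85 to 306 reads a library.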

Other observations

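Of the 12 epithelial markers, 0 were called in the cornea, against 1.22% of all genes, and 7 were above and 5 below 0 with a median log2 change of 0.03. Without the fold threshold, 1 marker passed an adjusted p of 0.05, and the share of all genes that did so is not given here. That marker was *Trp63*, the master factor of basal epithelial cells, at 731 ± 84.1 in AL and 1025 ± 117 in CR (n = 5 each). Its log2 change was 0.49 (limma adjusted p = 0.0468), under the 1.5-fold threshold. The diets did not overlap for it, as for 2.08% of all genes, higher under CR, in this tissue. The basal keratins *Krt5* (log2 change 0.02, adjusted p = 0.921) and *Krt14* (log2 change −0.15, adjusted p = 0.775) did not pass. *Krt4*, a keratin typical of the conjunctiva, was 3359.5 ± 1105 and 6628 ± 2617 (log2 change 0.96, adjusted p = 0.137). Of the listed conjunctival markers, 6 of 6 had a positive log2 change under CR in the cornea without passing, where 46.9% of all genes were higher. The summed counts of these markers overlapped between the diets, with a lower median under CR. The part of these markers in the *Cldn1* values was not tested.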
